A study of Mus musculus with 10 samples.

Results

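The genes described here are those of fatty acid and triglyceride synthesis, from the transcription factors that switch the pathway on to the enzymes that place the last fatty acid on glycerol. They were chosen by name, as a list of 39 genes, and 38 of these had a probe set of their own among the 22180 genes that did so on the array. The remaining gene, Scd2, shared its probe set with a microRNA gene, and no value is given for it. A probe set is a group of array probes that is summarised to 1 level per array. The levels were log2 values, so that a difference of 1 is a doubling, and they came from 10 arrays, each of total liver RNA. The double knockout group held 5 arrays of liver RNA from male mice lacking both macroH2A1 and macroH2A2, 2 months old, of the strain 129/S6 (taconic). The wild-type group held 5 arrays of liver RNA from males of that strain and age. All mice had been kept on low fat chow with lights on at 8 AM, went without food overnight (about 16 h) before they were killed between 9 and 10 AM. The sources used here do not give how, or in which cells, the genes were deleted. MacroH2A proteins are histone variants that carry a large extra domain and are known from silent chromatin.

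Liver makes fatty acids from the acetyl-CoA that is left over when carbohydrate is plentiful. Cytosolic acetyl-CoA is carboxylated to malonyl-CoA, fatty acid synthase joins malonyl-CoA units into palmitate, elongases and desaturases lengthen the chain and add double bonds, and acyltransferases attach the products to glycerol phosphate to form triglyceride. Insulin raises the pathway through SREBP-1c and glucose raises it through ChREBP, so that in an overnight fast its transcripts are generally low in liver, while some triglyceride enzymes, such as lipin 1, are known to be induced by fasting.

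Promoter windows of 4 members are shown as examples. Acly and Tecr were the 2 members whose double knockout and wild-type arrays did not overlap, as was so for 3.9% of all tested probe sets. Lpin1 had the largest difference, and Fasn, the central enzyme, had a difference near 0. The windows are from RefSeq (GRCm38.p6) and run from 250 bases before to 50 bases after an annotated start, all on the minus strand: Acly at chr11:100527951-100528250, Tecr at chr8:83594442-83594741, Fasn at chr11:120824498-120824797 and Lpin1 at chr12:16610917-16611216. Capitals mark CCAAT, the box bound by NF-Y, a partner of SREBP proteins on many lipid promoters, CACGTG, a form of the E-box, and CACCCCAC, the core of a sterol response element, each on either strand.
Acly: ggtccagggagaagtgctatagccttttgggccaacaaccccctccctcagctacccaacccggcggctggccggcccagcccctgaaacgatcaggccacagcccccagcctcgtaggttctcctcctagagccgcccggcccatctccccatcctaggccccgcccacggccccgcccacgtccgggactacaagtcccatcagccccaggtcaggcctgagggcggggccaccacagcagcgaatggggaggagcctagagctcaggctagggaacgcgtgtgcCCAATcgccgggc
Tecr: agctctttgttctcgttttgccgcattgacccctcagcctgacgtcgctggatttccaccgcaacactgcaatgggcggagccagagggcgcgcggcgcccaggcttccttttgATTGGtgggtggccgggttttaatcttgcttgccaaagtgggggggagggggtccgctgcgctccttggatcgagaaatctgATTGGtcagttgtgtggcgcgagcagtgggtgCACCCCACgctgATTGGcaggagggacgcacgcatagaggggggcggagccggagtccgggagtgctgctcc
Fasn: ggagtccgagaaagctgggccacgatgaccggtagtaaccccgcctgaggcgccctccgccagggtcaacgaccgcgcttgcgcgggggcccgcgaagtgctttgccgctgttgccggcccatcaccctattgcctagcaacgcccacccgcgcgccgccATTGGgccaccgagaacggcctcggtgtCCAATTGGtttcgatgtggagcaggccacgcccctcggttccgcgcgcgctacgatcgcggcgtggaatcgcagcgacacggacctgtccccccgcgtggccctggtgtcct
Lpin1: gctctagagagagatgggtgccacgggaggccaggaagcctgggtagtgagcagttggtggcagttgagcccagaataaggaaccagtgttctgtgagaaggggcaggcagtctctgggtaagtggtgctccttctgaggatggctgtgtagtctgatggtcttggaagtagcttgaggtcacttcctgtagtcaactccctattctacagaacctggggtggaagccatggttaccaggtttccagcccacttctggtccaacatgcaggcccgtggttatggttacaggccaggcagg

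The Acly window held 1 CCAAT, which lay after the start, and the Tecr window held 3 CCAAT and 1 CACCCCAC. In the Fasn window there were 3 CCAAT, of which 2 overlapped as a palindrome, and the Lpin1 window held 0 matches. The Fasn and Lpin1 windows lie at starts inside the genes, whose upstream ends are at 120825166 and 16653903. The counts for Fasn and Lpin1 therefore do not describe the promoters at the upstream ends of these genes. Among 32851 promoter windows of all genes, 37.4% held a CCAAT, 7.15% a CACGTG and 2.87% a CACCCCAC. RefSeq windows were matched for 31 members, 43 windows in all, since some genes have several starts. Of these, 48.8% held a CCAAT, 11.6% a CACGTG (Elovl5, Hacd3, Lpin2, Lpin3 and Mlxipl) and 6.98% a CACCCCAC (Elovl7, Gpam and Tecr). A match describes the letters of a window and was not tested as a binding site.

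The arrays and the tissue were checked first. Array medians lay between 6.43 and 6.46 and correlations between arrays between 0.989 and 0.995. The Macroh2a1 probe set fell by 0.49 (SE 0.05, limma adjusted p = 0.00128), with 9.02 to 9.18 on the double knockout arrays and 9.51 to 9.66 on the wild-type arrays, and Macroh2a2, with a difference of -0.20 (limma adjusted p = 0.514), lay below the background level given next in the mean of both groups. With the mean of the macrophage markers as a term, Macroh2a1 had -0.46 (limma adjusted p = 0.0514). Whether either one covers a deleted exon is not stated in the labels. All 10 hepatocyte markers were above background in their means over the 10 arrays, with background taken as the 95th percentile of 1108 olfactory receptor probe sets (6.54), and their mean per array was 12.81 to 12.89 in double knockout and 12.79 to 12.97 in wild-type livers. Macrophage markers had higher means in double knockout livers for 15 of 15 genes, 2 of them called (Cd163 and Marco), with a list mean of 9.04 to 9.38 in double knockout against 8.83 to 9.11 in wild-type livers. Of 7 adipocyte markers, which matter here because fat cells also make fatty acids, 0 were called, and Adipoq, Lep, Plin1 and Adig lay below background in their means over the 10 arrays (Plin1 averaged 6.50 in double knockout and 6.56 in wild-type livers). Retn, Lipe and Fabp4 lay above background, with differences of -0.01, -0.09 and 0.59 (limma adjusted p = 0.966, 0.412 and 0.319). The adipocyte list mean was 6.59 to 6.83 in double knockout and 6.47 to 6.75 in wild-type livers. Pancreatic acinar markers stood apart on 4 arrays, with means of 8.88 and 9.15 on double knockout replicates 1 and 2 and 10.14 and 11.25 on wild-type replicates 4 and 5, against 6.13 to 6.86 on the other 6. Results are therefore also given without these 4 arrays. The acinar list mean had an exact permutation p of 0.643, the hepatocyte list 0.349, the adipocyte list 0.333 and the macrophage list 0.0238 (two-sided, n = 5 each; 0.238 for macrophages after adjustment over the 10 marker lists). The erythroid, endothelial, stellate and fibroblast, cholangiocyte, lymphocyte and neutrophil lists had 0 called genes and exact permutation p-values of 0.111 to 0.968, and all 6 neutrophil markers lay below background in both group means.

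The question was whether livers lacking both macroH2A proteins differ from wild-type livers in these transcripts after a fast. Differences were mostly small, and their direction was mixed between steps and within gene families. The regulator Srebf1, the acetyl-CoA enzymes Acly and Acss2, the desaturase Scd1 and the triglyceride enzymes Dgat1 and Mogat1 had lower means in double knockout livers, by 0.14 to 0.38 on the log2 scale. In contrast, the carboxylase Acacb, the elongases Elovl3 and Elovl7 and the lipins Lpin1 and Lpin2 had higher means, by 0.20 to 0.80. None of these differences passed the threshold of an adjusted p under 0.05. In bulk liver RNA, fewer cells of a type and less RNA per cell cannot be told apart.

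Of the 38 members, 0 were called in limma with Benjamini-Hochberg adjustment over all 25335 tested probe sets, of which 0.884% were called (84 higher and 140 lower). At an unadjusted p under 0.05 there were 16 members, or 42.1%, against 15.1% of all tested probe sets. Of these 16, 6 had higher and 10 had lower means. Of the 3829 tested probe sets at that p, 1904 (7.52% of all tested) had higher and 1925 (7.6%) had lower means. All 38 members had a mean over the 10 arrays above background, as 14065 tested probe sets did. Of those 14065, 19.5% had an unadjusted p under 0.05 in either direction, 1220 with higher and 1528 with lower means. At an adjusted p under 0.10, which 2.31% of the tested probe sets reached, there were 2 members, Acly and Elovl7. The groups did not overlap for 2 of 38 members, Acly and Tecr, for 3.9% of the tested probe sets and for 814 of the 14065 above background. Lower means were found for 24 of 38 members (63.2%), against 51.5% of tested probe sets and 54.3% of those above background. The median difference of the members was -0.03, against -0.003 over all tested probe sets and -0.0098 over those above background. The median size of a difference was 0.087, against 0.056 over all tested probe sets and 0.064 over those above background. The members were chosen as a pathway with earlier results of these arrays known, and the list itself was given no test.

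**Figure D1:**
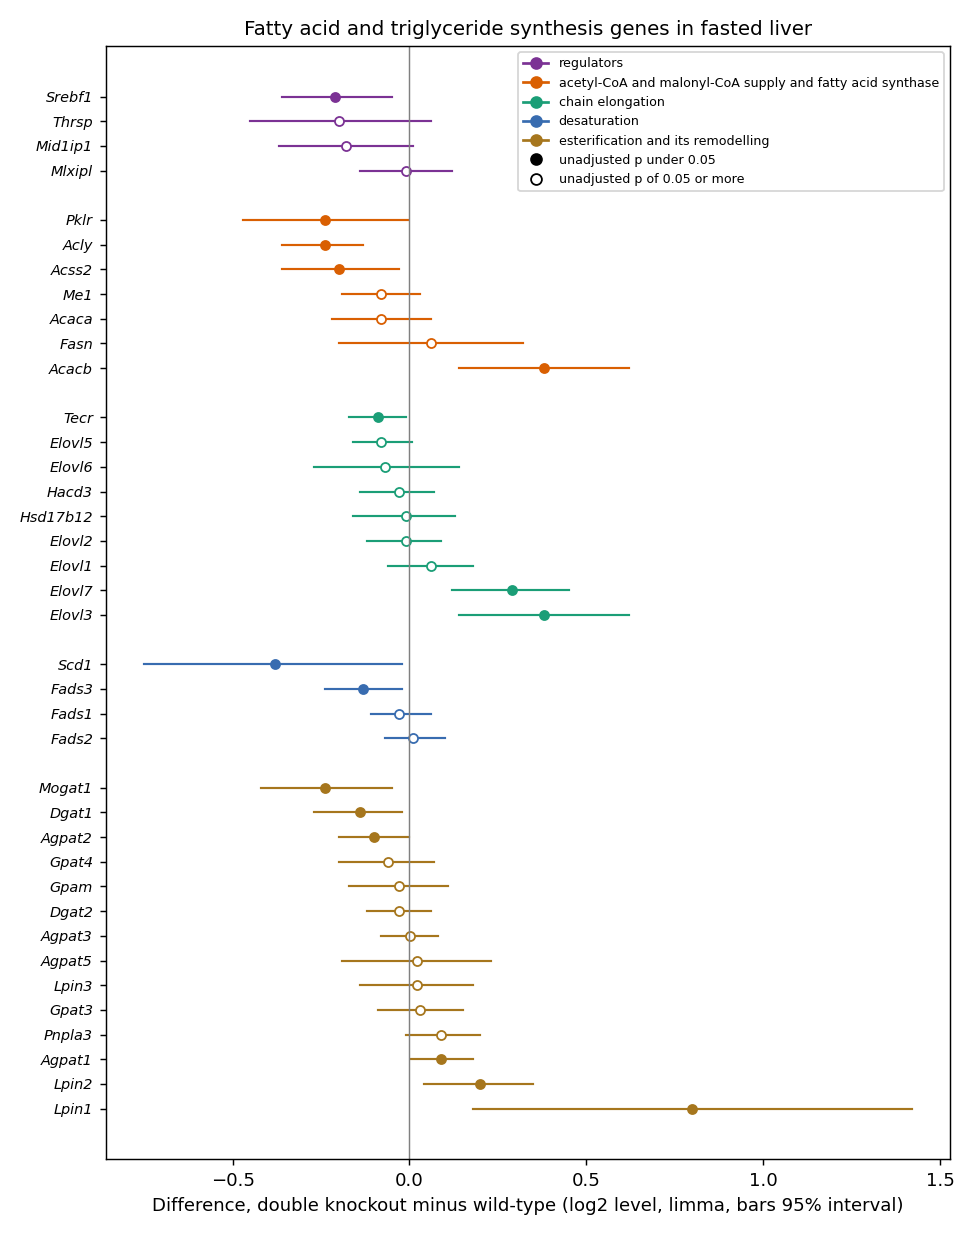
Difference in log2 level between double knockout and wild-type livers (5 arrays each) for 38 genes, by step of the pathway; points are limma estimates, bars are 95% intervals, and filled points have an unadjusted p under 0.05. The points run from -0.38 for Scd1 to 0.80 for Lpin1, and 22 of them lie within 0.10 of 0.

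Among the 4 regulators, all had lower means in double knockout livers, 0 were called and 1, Srebf1, had an unadjusted p under 0.05. Srebf1 encodes SREBP-1, the transcription factor through which insulin raises fatty acid synthesis. Its level was 8.43, 8.50, 8.36, 8.33 and 8.22 on double knockout replicates 1 to 5, against 8.68, 8.70, 8.58, 8.58 and 8.34 on wild-type replicates 1 to 5. Wild-type replicate 5 lay among the double knockout arrays, and the other 4 wild-type arrays lay above all 5 double knockout arrays. The means were 8.37 ± 0.11 in double knockout and 8.57 ± 0.14 in wild-type livers (SD, n = 5 each), a difference of -0.21 (SE 0.07, limma adjusted p = 0.203), or 1.15-fold lower. Without the 4 arrays rich in acinar markers the difference was -0.35 (limma adjusted p = 0.0951).

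Thrsp, also called Spot 14, a lipogenic protein that follows thyroid hormone and carbohydrate, averaged 7.02 ± 0.24 in double knockout and 7.21 ± 0.20 in wild-type livers (SD, n = 5 each), with a difference of -0.20 and a 95% interval from -0.45 to 0.06. It was -0.10 without double knockout replicate 2, -0.11 without wild-type replicate 3 and -0.05 with the mean of the macrophage markers as a term in the fit (the macrophage term). Mid1ip1, its relative, which helps acetyl-CoA carboxylase to polymerise, had -0.18 (95% interval -0.37 to 0.01) on its main probe set, and -0.10 without double knockout replicate 4. Its other 2 probe sets had 0.08 and -0.01, so the probe sets of Mid1ip1 disagree in direction. Mlxipl encodes ChREBP, which responds to glucose. It averaged 11.14 ± 0.05 in double knockout and 11.15 ± 0.14 in wild-type livers (SD, n = 5 each), and its difference of -0.01 had a 95% interval from -0.14 to 0.12.

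The 7 genes of acetyl-CoA and malonyl-CoA supply and fatty acid synthase had lower means for 5 and higher means for 2, with 0 called and 4 at an unadjusted p under 0.05. The lowest p of all members was that of Acly, ATP citrate lyase, which cleaves exported citrate into the acetyl-CoA used for fatty acids. Acly stood at 9.40, 9.35, 9.35, 9.29 and 9.24 on double knockout replicates 1 to 5, against 9.63, 9.54, 9.54, 9.70 and 9.44 on wild-type replicates 1 to 5. Every double knockout array lay below every wild-type array, with a gap between the nearest arrays, 9.40 and 9.44, that was smaller than either group's range. The means were 9.33 ± 0.06 and 9.57 ± 0.10 (SD, n = 5 each), a difference of -0.24 (SE 0.05, limma adjusted p = 0.0594), or 1.18-fold lower in double knockout livers. Acly was called with an intensity trend (limma adjusted p = 0.0473), after renewed quantile normalization (0.0451), after a filter on low levels (0.0364) and without wild-type replicate 5 (0.0384). Over all 22 alternative fits its difference ranged from -0.30 to -0.21 and its limma adjusted p from 0.0364 to 0.183. Acly was called in only 4 of these 22 fits. It was not called without the 4 arrays rich in acinar markers (-0.28, limma adjusted p = 0.132) or with the macrophage term (-0.30, limma adjusted p = 0.183).

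Acss2, acyl-CoA synthetase 2, makes acetyl-CoA from acetate and is a known SREBP target. Acss2 had levels of 10.12, 9.85, 10.02, 9.90 and 9.63 on double knockout replicates 1 to 5, against 10.08, 10.10, 10.17, 10.06 and 10.08 on wild-type replicates 1 to 5. Of the double knockout arrays, 4 lay below the wild-type range, replicate 1 lay inside it, and the double knockout arrays were spread more widely, with an SD of 0.19 against 0.04. The difference was -0.20 (SE 0.08, limma adjusted p = 0.254). Pklr, liver pyruvate kinase, the last enzyme of glycolysis and a classic ChREBP target, stood at 10.27, 10.34, 10.32, 10.11 and 9.83 on double knockout replicates 1 to 5, against 10.46, 10.61, 10.51, 10.14 and 10.33 on wild-type replicates 1 to 5. The groups overlapped, and the difference was -0.24 (SE 0.11, limma adjusted p = 0.32). Double knockout replicate 5 was the lowest array for both genes, and without it Acss2 and Pklr had differences of -0.13 and -0.15. Without the 4 arrays rich in acinar markers Pklr had -0.44 (limma adjusted p = 0.19). Me1, malic enzyme, which supplies NADPH, had -0.08 (95% interval -0.19 to 0.03), with -0.05 without double knockout replicate 2 and -0.02 with the macrophage term.

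The 2 acetyl-CoA carboxylases had differences of opposite sign. Acaca, the cytosolic form that feeds synthesis, averaged 8.35 ± 0.08 in double knockout and 8.44 ± 0.13 in wild-type livers (SD, n = 5 each), with a difference of -0.08 (95% interval -0.22 to 0.06). Acaca had -0.20 without the 4 arrays rich in acinar markers (limma adjusted p = 0.218), and the fits that left out wild-type replicate 3 or 5 gave -0.05 and -0.13. Acacb is the form at the mitochondrial surface, whose malonyl-CoA restrains the entry of fatty acids into oxidation. It had levels of 9.56, 9.04, 9.26, 9.13 and 9.09 on double knockout replicates 1 to 5, against 8.63, 9.04, 9.06, 8.69 and 8.76 on wild-type replicates 1 to 5. Double knockout replicates 1, 3, 4 and 5 lay above all wild-type arrays, and replicate 2 lay inside the wild-type range. Its difference was 0.38 (SE 0.11, limma adjusted p = 0.133), or 1.30-fold higher, and 0.25 without the 4 arrays rich in acinar markers (limma adjusted p = 0.411). Whether the 2 carboxylases changed unequally was not tested.

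Fasn, fatty acid synthase, averaged 10.18 ± 0.19 in double knockout and 10.12 ± 0.24 in wild-type livers (SD, n = 5 each). Its difference of 0.06 (limma adjusted p = 0.877) had a 95% interval from -0.20 to 0.32, and it varied between arrays of a group more than 95.4% of tested probe sets did. The lowest array was wild-type replicate 4, at 9.77, which was rich in acinar markers, and without the 4 such arrays the difference was -0.18 (limma adjusted p = 0.469). The direction of Fasn therefore depends on which arrays are used.

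Chain elongation adds carbon pairs to palmitate and to dietary fatty acids in the endoplasmic reticulum. Of its 9 genes, 6 had lower and 3 had higher means, 0 were called and 3 had an unadjusted p under 0.05. Elovl3, an elongase of saturated and monounsaturated chains that in mouse liver is known for its daily rhythm and its higher level in males, stood at 12.55, 12.42, 12.77, 12.88 and 12.94 on double knockout replicates 1 to 5. On wild-type replicates 1 to 5 it stood at 12.09, 12.60, 12.27, 12.33 and 12.38. Double knockout replicates 3, 4 and 5 lay above all wild-type arrays and the other two lay inside the wild-type range. The difference was 0.38 (SE 0.11, limma adjusted p = 0.137), 1.30-fold higher, and 0.54 without the 4 arrays rich in acinar markers (limma adjusted p = 0.147).

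Elovl7, an elongase of saturated long chains, had group means just above background, with levels of 6.96, 6.74, 6.83, 7.11 and 6.83 on double knockout replicates 1 to 5, against 6.51, 6.61, 6.63, 6.52 and 6.79 on wild-type replicates 1 to 5. Wild-type replicates 1 and 4 lay below background, and only wild-type replicate 5 overlapped with the double knockout arrays. The difference of 0.29 (SE 0.07) had a limma adjusted p = 0.0999, the second lowest of the members. Elovl3 and Elovl7 kept their higher means in all 22 alternative fits, between 0.32 and 0.55 for Elovl3 and between 0.23 and 0.35 for Elovl7.

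Tecr encodes the enoyl reductase that completes each elongation cycle. It stood at 13.04, 13.02, 12.99, 13.02 and 12.97 on double knockout replicates 1 to 5, against 13.14, 13.13, 13.09, 13.06 and 13.08 on wild-type replicates 1 to 5. The groups did not overlap, but the difference was only -0.09 (SE 0.04, limma adjusted p = 0.266), and Tecr varied less within groups than 99% of tested probe sets. The other enzymes of the cycle, the reductase Hsd17b12 and the dehydratase Hacd3, had -0.01 (95% interval -0.16 to 0.13) and -0.03 (95% interval -0.14 to 0.07).

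Among the other elongases, Elovl5, which acts on polyunsaturated chains, averaged 13.26 ± 0.04 in double knockout and 13.33 ± 0.04 in wild-type livers (SD, n = 5 each), with a difference of -0.08 (limma adjusted p = 0.378). Elovl6, which extends palmitate and is a known SREBP-1c target, averaged 10.73 ± 0.11 in double knockout and 10.80 ± 0.21 in wild-type livers (SD, n = 5 each), a difference of -0.07 with a 95% interval from -0.27 to 0.14. Elovl2, which also acts on polyunsaturated chains, had -0.01 (95% interval -0.12 to 0.09). Elovl1, which acts on very long saturated chains, had 0.06 (95% interval -0.06 to 0.18).

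**Figure D2:**
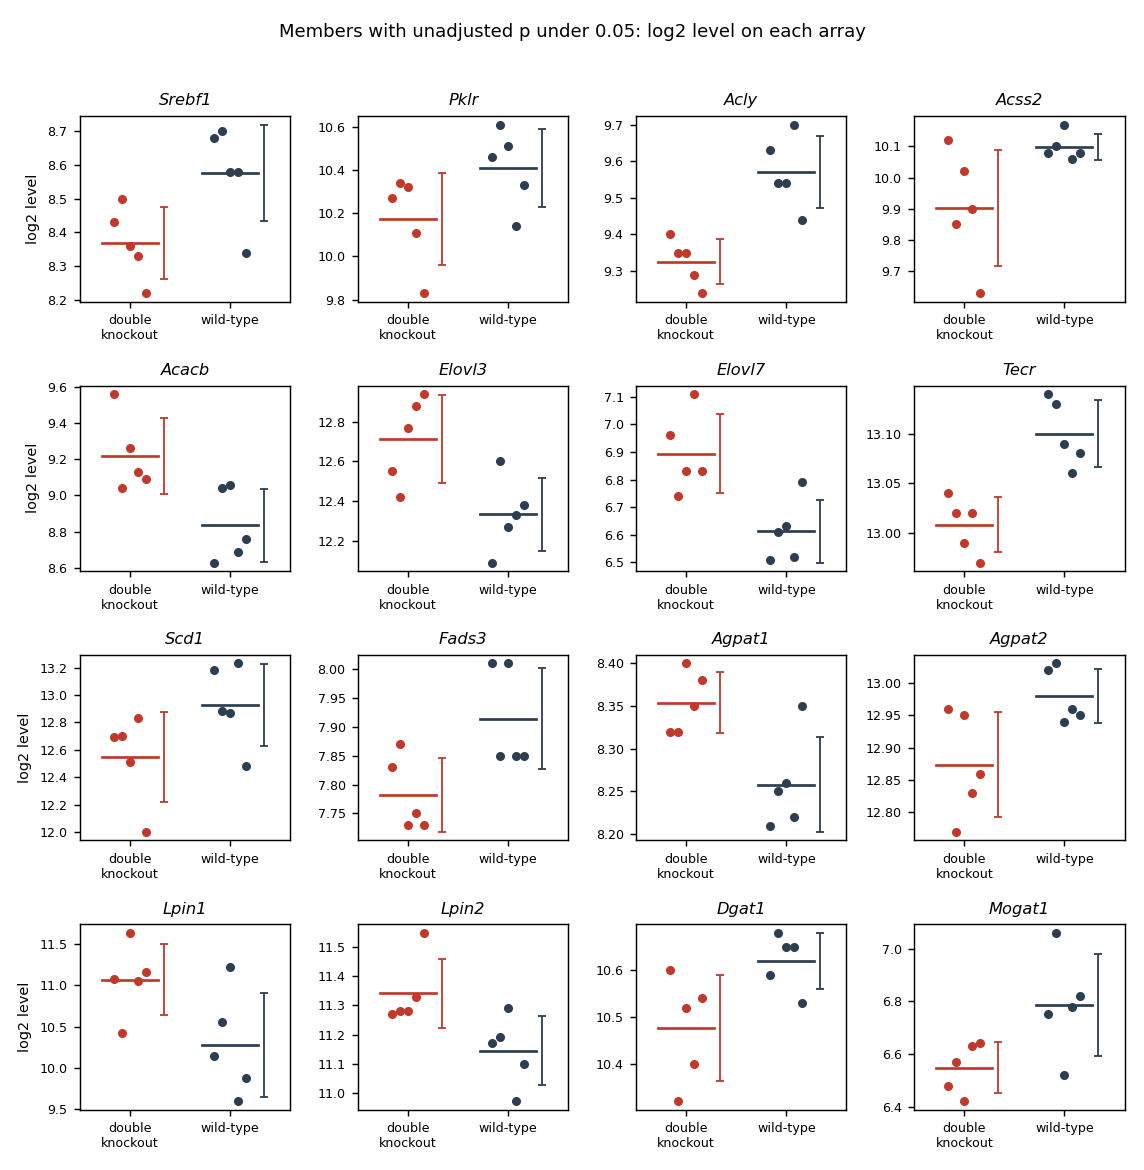
Log2 level on each array for the 16 genes with an unadjusted p under 0.05, double knockout left and wild-type right; horizontal lines are means and bars are SD (n = 5 each), and each panel has its own axis. The groups are separate for Acly and Tecr and overlap for the other 14 genes.

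Desaturation introduces the double bonds. Of the 4 measured desaturases 3 had lower means and 1 a higher mean, 0 were called and 2 had an unadjusted p under 0.05. Scd1, stearoyl-CoA desaturase, which makes oleate and is among the transcripts most responsive to feeding in mouse liver, stood at 12.69, 12.70, 12.51, 12.83 and 12.00 on double knockout replicates 1 to 5. On wild-type replicates 1 to 5 it stood at 13.18, 12.88, 12.87, 13.23 and 12.48. The 2 lowest arrays were replicate 5 of each group, and the groups overlapped only through wild-type replicate 5. The means were 12.54 ± 0.33 in double knockout and 12.93 ± 0.30 in wild-type livers (SD, n = 5 each), a difference of -0.38 (SE 0.17, limma adjusted p = 0.296), or 1.31-fold lower. Without the 4 arrays rich in acinar markers it was -0.53 (limma adjusted p = 0.306), and the fits without 1 array gave -0.50 to -0.25, with -0.25 without double knockout replicate 5. With the macrophage term it was -0.66 (limma adjusted p = 0.297).

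Fads3, a relative of the polyunsaturated fatty acid desaturases known to act on sphingoid bases, stood at 7.83, 7.87, 7.73, 7.75 and 7.73 on double knockout replicates 1 to 5, against 8.01, 7.85, 8.01, 7.85 and 7.85 on wild-type replicates 1 to 5. Double knockout replicate 2 overlapped with the wild-type arrays and the other 4 lay below them. The difference was -0.13 (SE 0.05, limma adjusted p = 0.257), and -0.22 without the 4 arrays rich in acinar markers (limma adjusted p = 0.215). Fads1 and Fads2, which make arachidonic and other highly unsaturated acids, had differences of -0.03 (95% interval -0.11 to 0.06) and 0.01 (95% interval -0.07 to 0.10). These 2 genes were among the least variable, with group SDs of 0.03 to 0.05.

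Esterification builds triglyceride from glycerol phosphate through lysophosphatidate, phosphatidate and diglyceride, with a separate entry from monoglyceride. Of its 14 genes 6 had lower and 8 had higher means, 0 were called and 6 had an unadjusted p under 0.05, 3 in each direction. The glycerol phosphate acyltransferases, which take the first step, differed little. Gpam, the mitochondrial form and a known SREBP-1c target, had -0.03 (95% interval -0.17 to 0.11), Gpat3 had 0.03 (95% interval -0.09 to 0.15) and Gpat4 had -0.06 (95% interval -0.20 to 0.07). A second probe set of Gpat3, below background at 5.23 ± 0.09 in double knockout and 5.36 ± 0.05 in wild-type livers (SD, n = 5 each), had -0.13 with groups that did not overlap, opposite in direction to the main one.

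The lysophosphatidate acyltransferases come next. Agpat2, the form whose loss causes lipodystrophy in humans and mice, stood at 12.96, 12.77, 12.95, 12.83 and 12.86 on double knockout replicates 1 to 5, against 13.02, 13.03, 12.94, 12.96 and 12.95 on wild-type replicates 1 to 5. Agpat1, of the same activity, stood at 8.32, 8.32, 8.40, 8.35 and 8.38 on double knockout replicates 1 to 5, against 8.21, 8.25, 8.26, 8.22 and 8.35 on wild-type replicates 1 to 5. Both pairs of groups overlapped, with lower double knockout values for most arrays of Agpat2 and higher ones for most of Agpat1. The differences were -0.10 (SE 0.05, limma adjusted p = 0.322) for Agpat2 and 0.09 (SE 0.04, limma adjusted p = 0.302) for Agpat1. Agpat2 had -0.02 with the macrophage term (limma adjusted p = 0.932), and Agpat1 had 0.14 without the 4 arrays rich in acinar markers (limma adjusted p = 0.327). Agpat3 had 0.0025 (95% interval -0.08 to 0.08) and Agpat5 0.02 (95% interval -0.19 to 0.23).

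Lipins dephosphorylate phosphatidate to diglyceride, and lipin 1 also acts in the nucleus as a partner of PGC-1alpha. Lpin1 stood at 11.08, 10.42, 11.64, 11.06 and 11.16 on double knockout replicates 1 to 5, against 10.14, 10.56, 11.22, 9.59 and 9.87 on wild-type replicates 1 to 5. Its arrays were far apart in both groups: wild-type replicate 3 was the second highest of all 10, and double knockout replicate 2 lay below 2 of the wild-type arrays. The means were 11.07 ± 0.44 in double knockout and 10.28 ± 0.64 in wild-type livers (SD, n = 5 each), a difference of 0.80 (SE 0.28, limma adjusted p = 0.21), or 1.74-fold higher, with a 95% interval from 0.18 to 1.42. Within groups Lpin1 varied more than 99.5% of tested probe sets. Without the 4 arrays rich in acinar markers, which include the 2 lowest wild-type arrays of Lpin1, the difference was 0.65 (limma adjusted p = 0.353). With the mean of the macrophage markers as a term it was 1.25 (limma adjusted p = 0.262).

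Lpin2, the other lipin with a high signal in liver, stood at 11.27, 11.28, 11.28, 11.33 and 11.55 on double knockout replicates 1 to 5, against 11.17, 11.19, 11.29, 10.97 and 11.10 on wild-type replicates 1 to 5. Wild-type replicate 3, high for Lpin1 too, was the one wild-type array inside the double knockout range. The difference was 0.20 (SE 0.07, limma adjusted p = 0.211), and 0.14 without double knockout replicate 5, the lowest of the 10 fits that leave out 1 array. With the macrophage term it was 0.31 (limma adjusted p = 0.251). A second probe set of Lpin2 had 0.54 (SE 0.29, limma adjusted p = 0.413), with values spread from 8.12 to 10.20 on the double knockout arrays. Lpin3 had 0.02 (95% interval -0.14 to 0.18).

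Dgat1 and Dgat2 catalyse the last step, from diglyceride to triglyceride. Dgat1 stood at 10.60, 10.32, 10.52, 10.40 and 10.54 on double knockout replicates 1 to 5, against 10.59, 10.68, 10.65, 10.65 and 10.53 on wild-type replicates 1 to 5. Double knockout replicates 2, 3 and 4 lay below the wild-type range, and the difference was -0.14 (SE 0.06, limma adjusted p = 0.266). With the macrophage term it was -0.05 (limma adjusted p = 0.868). Dgat2, the enzyme tied to newly made fatty acids, had -0.03 (95% interval -0.12 to 0.06). Mogat1, which makes diglyceride from monoglyceride, stood at 6.48, 6.57, 6.42, 6.63 and 6.64 on double knockout replicates 1 to 5, against 6.75, 7.06, 6.52, 6.78 and 6.82 on wild-type replicates 1 to 5. Only wild-type replicate 3 lay within the double knockout range, both groups were close to background, and the difference was -0.24 (SE 0.09, limma adjusted p = 0.214). Pnpla3, a lipid droplet protein that SREBP-1c induces, was also close to background and had 0.09 (95% interval -0.01 to 0.20), and 0.17 with the macrophage term.

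**Figure D3:**
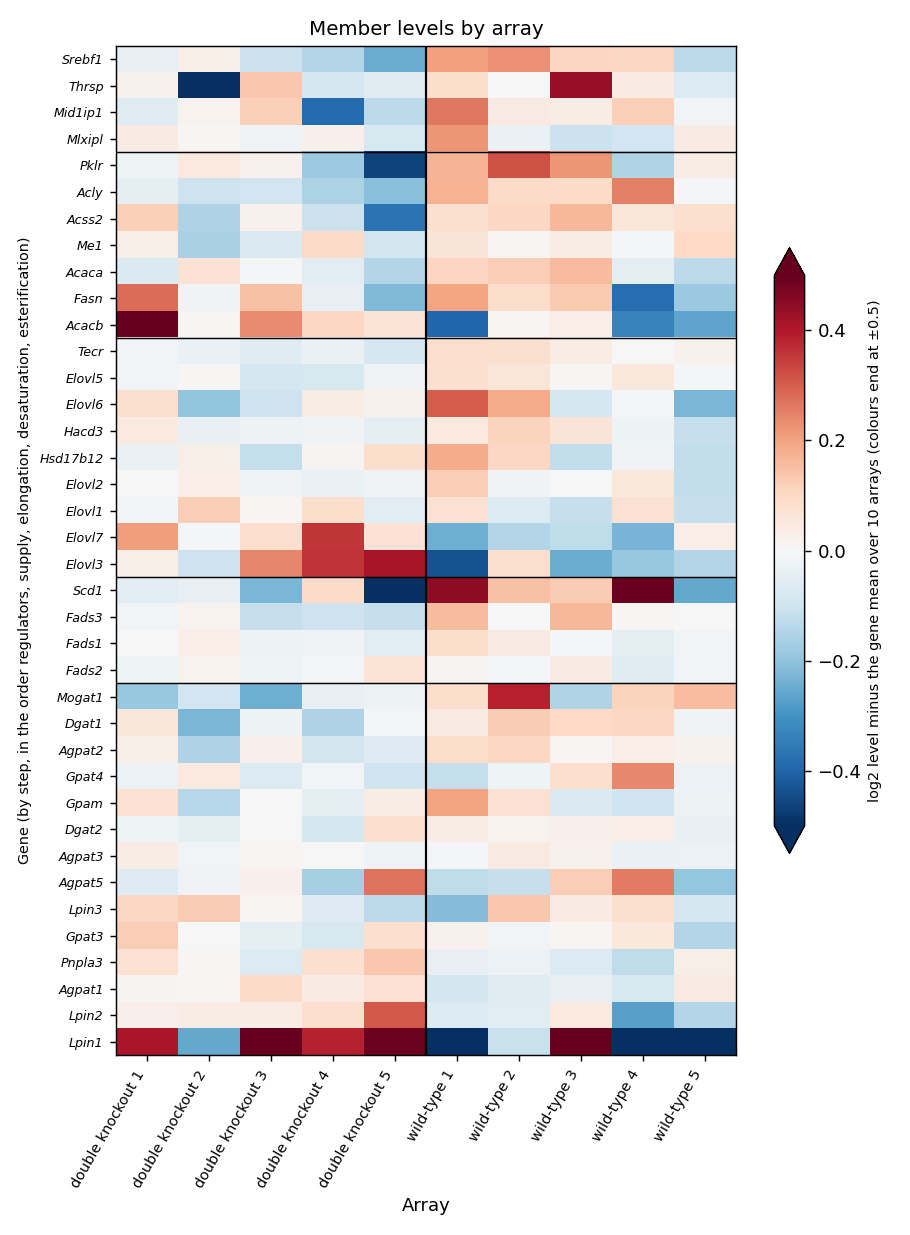
Log2 level minus the gene's mean over the 10 arrays, for 38 genes (rows, by step) and 10 arrays (columns, double knockout left and wild-type right); colours end at 0.5 either way. Lpin1, Scd1 and Thrsp vary widely within groups, and double knockout replicate 5 is low for Pklr, Acss2 and Scd1 and high for Elovl3 and Lpin2.

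Members varied unequally within groups. The pooled SD of a member within groups had a median of 0.11, against 0.10 over all tested probe sets and 0.09 over those above background, and 9 of 38 members lay above the 90th percentile of all tested probe sets. These were Lpin1 (0.55), Scd1 (0.31), Thrsp (0.22), Fasn (0.22), Acacb (0.20), Elovl3 (0.20), Pklr (0.20), Agpat5 (0.18) and Elovl6 (0.17). At the other end, Agpat3 (0.03), Tecr (0.03), Fads2 (0.04), Elovl5 (0.04), Fads1 (0.04) and Agpat1 (0.05) lay below the 5th percentile. The upper group held genes of all 5 steps, and the lower group held 2 elongation, 2 desaturation and 2 acyltransferase genes.

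Single arrays also stood out. Among the double knockout arrays, replicate 5 was lowest for 15 of 38 members and replicate 1 highest for 13, and among the wild-type arrays, replicate 5 was lowest for 16 and replicate 1 highest for 11. For supply and fatty acid synthase, the median deviation from the gene means was 0.03, -0.02, 0.02, -0.06 and -0.21 on double knockout replicates 1 to 5, against 0.11, 0.09, 0.13, -0.05 and -0.01 on wild-type replicates 1 to 5. For esterification it lay between -0.04 and 0.05 on the double knockout arrays and between -0.03 and 0.03 on the wild-type arrays. The number of members with an unadjusted p under 0.05 was 9 without double knockout replicate 5, and 10 without wild-type replicate 1, 2 or 3, with 9 to 16 over the 10 fits that leave out 1 array. Without the 4 arrays rich in acinar markers, 0 members were called and 0 of the 16 changed direction. With the mean of the macrophage markers added to the fit, 0 members were called, 10 had an unadjusted p under 0.05, and 9 members changed direction, all with a difference of at most 0.07 in size without the covariate. The part of macrophages, and of pancreatic tissue, in these differences was not tested.

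Beyond the members, 88 other genes of the pathway were examined, and 78 of them could be measured on a probe set carrying no other gene. Called were 0 higher and 1 lower, or 1.28%, near the 0.884% of all tested probe sets. At an unadjusted p under 0.05 there were 18 (23.1%), against 15.1% of all tested probe sets and 19.5% of those above background. Lower means were found for 14 of these 18. At that p, lower means were found for 1925 of 3829 among all tested probe sets and for 1528 of 2748 among those above background. Regardless of p, 49 of 78 (62.8%) had lower means, against 51.5% of all tested probe sets and 54.3% of those above background.

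The called gene was Gckr, the glucokinase regulatory protein, which holds glucokinase in the hepatocyte nucleus when glucose is low. It stood at 11.17, 11.15, 11.18, 11.17 and 11.29 on double knockout replicates 1 to 5, against 11.60, 11.62, 11.36, 11.58 and 11.46 on wild-type replicates 1 to 5. All double knockout arrays lay below all wild-type arrays. Gckr fell by 0.33 (SE 0.06, limma adjusted p = 0.0235), 1.26-fold lower. The call was lost in 5 of the 10 fits without 1 array, namely without double knockout replicate 2, 3 or 4 or wild-type replicate 2 or 4 (limma adjusted p up to 0.0703), and without the 4 arrays rich in acinar markers (-0.31, limma adjusted p = 0.19). It was also lost with the mean of the macrophage markers as a term (-0.26, limma adjusted p = 0.259), with every probe set tested (limma adjusted p = 0.0585) and with replicate number as a block (0.088).

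Of 22 genes that control SREBP-1c, ChREBP and acetyl-CoA carboxylase, 0 were called. The 2 insulin receptor substrates had opposite directions. Irs2, which SREBP-1c is known to repress in liver and fasting to induce, stood at 10.60, 10.69, 10.31, 10.69 and 10.04 on double knockout replicates 1 to 5, against 10.00, 10.10, 9.86, 10.07 and 9.69 on wild-type replicates 1 to 5. Only double knockout replicate 5 lay inside the wild-type range, and the difference was 0.52 (SE 0.13, limma adjusted p = 0.0796). Without that array Irs2 was called, with 0.63 (SE 0.10, limma adjusted p = 0.0316). Irs1 had -0.30 (SE 0.08, limma adjusted p = 0.108) on its main probe set and -0.09 on a second, and was called without double knockout replicate 1, with -0.35 (limma adjusted p = 0.0499). Insig1, which retains SREBP proteins in the endoplasmic reticulum and falls outside the rule for named genes, is named after its values were seen. It averaged 11.01 ± 0.25 in double knockout and 11.37 ± 0.34 in wild-type livers (SD, n = 5 each), a difference of -0.36 (SE 0.16, limma adjusted p = 0.307). Without the 4 arrays rich in acinar markers it was called, with -0.66 (limma adjusted p = 0.0431). Stk11, the kinase LKB1 that activates AMPK, an inhibitor of acetyl-CoA carboxylase, had -0.17 (SE 0.05, limma adjusted p = 0.113).

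Among the 12 genes of citrate export, NADPH and glycolytic supply, Gckr was the one called. Pdk4, which shuts pyruvate out of the citric acid cycle in fasting, averaged 11.46 ± 0.15 in double knockout and 10.88 ± 0.49 in wild-type livers (SD, n = 5 each), a difference of 0.58 (limma adjusted p = 0.178). Idh1, a cytosolic source of NADPH, had -0.17 (limma adjusted p = 0.26). In the other 4 groups 0 genes were called. Of 5 genes of mitochondrial fatty acid synthesis, Mcat had -0.16 (limma adjusted p = 0.204). Of 11 partners of elongation and desaturation, the desaturase relative Fads6 had -0.17 (limma adjusted p = 0.11) and Cyb5r3, which passes electrons towards the desaturases, had -0.18 (limma adjusted p = 0.134).

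Fatty acid activation and release, with 10 genes, included Slc27a5, a bile acid and very long chain acyl-CoA synthetase, with -0.11 (limma adjusted p = 0.208), and the thioesterase Acot1, with 0.23 (limma adjusted p = 0.299). The 18 other acyltransferases and partners of glycerolipid synthesis included Lclat1 with -0.12, Lpcat3 with -0.12 and Lpcat2 with -0.11 (limma adjusted p = 0.202 to 0.272). Lpcat3 places polyunsaturated chains into phospholipids.

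**Figure D4:**
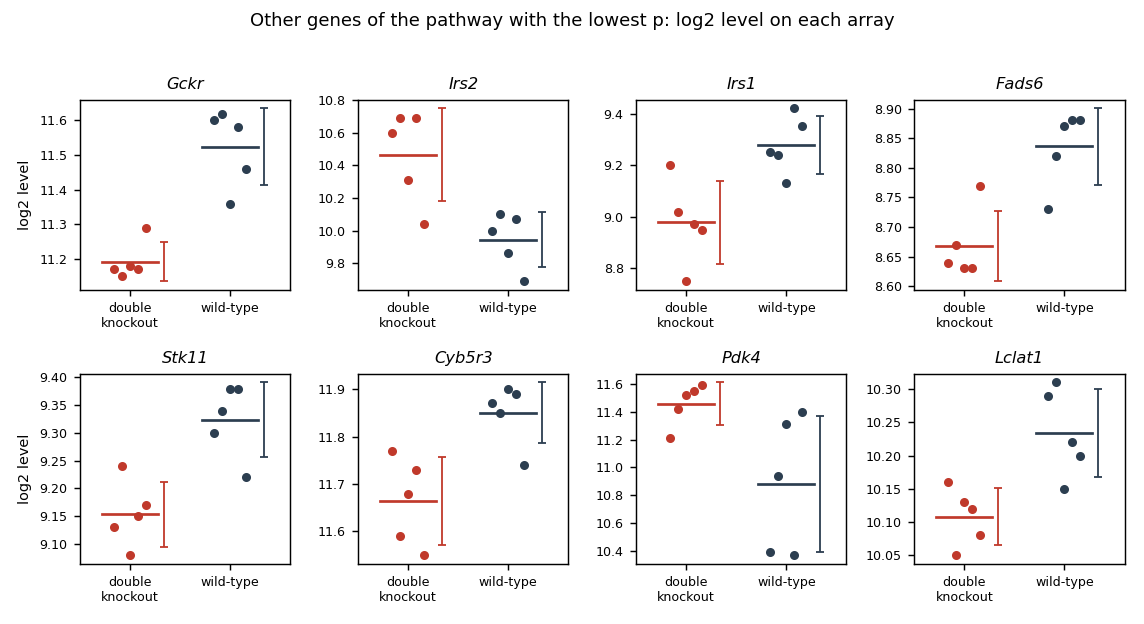
Log2 level on each array for the 8 other pathway genes of lowest p, double knockout left and wild-type right; horizontal lines are means and bars are SD (n = 5 each), and each panel has its own axis. The groups are separate for Gckr, the one called gene, and overlap for the other 7.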

How the data were processed

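Total liver RNA for 5 double knockout and 5 wild-type arrays was labelled from 250 ng with the Ambion WT Expression Kit, per the labels' protocols. The values were the authors' deposited log2 levels per probe set, and the submitters' processing notes name Affymetrix Expression Console as the software. The sources used here do not give its version, summarisation algorithm or normalization. Array quartiles lay within 0.046 of each other, so the table was used as normalized. Scanner files and hybridisation dates were not analysed here, and the number of arrays limits the precision.

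Of 41345 probe sets, 25335 had at least 1 gene symbol in the platform annotation and were tested, and genes were named from the 23521 with exactly 1. For a gene with several probe sets (3 members), the one with the highest mean over the 10 arrays was its main probe set. Double knockout was compared with wild-type with lmFit and eBayes of limma 3.58.1 (R 4.3.3; two-sided, group as the only term), with Benjamini-Hochberg adjustment over all tested probe sets and calls at an adjusted p under 0.05. Intervals are 95% intervals from that fit, for single genes. On simulated data for this comparison over 25335 probe sets, 58.2% of those changed by 0.3 were called, 89.6% of those changed by 0.5 and 98.5% of those changed by 1. The simulation used the real means and the limma-moderated spreads, with normal values drawn independently for each probe set and array. The rates are averages over probe sets picked at random and need not hold for members that vary widely.

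The members, the other pathway genes, the marker lists and the alternatives were chosen with earlier results of these data known. All members are named, with every array's value where the gene was called, had an unadjusted p under 0.05 or had groups that did not overlap. Of the other pathway genes, those called and up to 3 of lowest p per group are named. The labels do not say outright that each array is a separate animal. If not, p-values measure only the spread between samples. Alternatives were eBayes with trend or robust, array weights, renewed quantile normalization, median centring, a level filter, other sets of tested probe sets, the replicate block, marker means as covariates and leaving out arrays.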

Additional observations from a re-analysis of the deposited data

Results flagged for a closer look

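The check covered 82 groups of 5 arrays, from 41 of the genes named with values, 2 groups each. Of these groups, 3 had a lowest or highest array far from the other 4 by Dixon's criterion for 5 values (0.71). Chance alone marks about 1 in 20 groups. Lpin2 on double knockout replicate 5 was 11.55, against 11.27 to 11.33 on the other 4 double knockout arrays. Gckr on the same array was 11.29, against 11.15 to 11.18. Dgat2 on wild-type replicate 5 was 12.49, against 12.55 to 12.56 on the other wild-type arrays.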

How the results depend on the processing

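All 16 members with an unadjusted p under 0.05 kept their direction in all 22 alternative fits, and 1 member, Acly, was called in any of them. These fits reuse the same arrays, so a kept direction is not independent support. Fits with a trend, the robust option, the replicate block or another set of tested probe sets cannot change a difference. With the macrophage covariate, though, Agpat2 shrank to -0.02 and Dgat1 to -0.05. The numbers called among all tested probe sets, 84 higher and 140 lower, became 136 and 241 with the level filter, 31 and 44 with every probe set tested, 27 and 49 with the replicate block, 25 and 43 without the 4 acinar-rich arrays, 9 and 13 with the macrophage covariate, 257 and 328 at an adjusted p under 0.10, and 27 to 133 and 37 to 145 without 1 array. Members called lower numbered 1 with a trend, quantile normalization or the level filter and 0 to 1 without 1 array; at an adjusted p under 0.10, 1 was higher and 1 lower. Other pathway genes called lower numbered 0 with every probe set tested, with the replicate block (which called 1 higher, Irs2) or with the macrophage covariate, and 0 to 2 without 1 array; 0 to 1 were then called higher, and 1 at an adjusted p under 0.10. The cause was not tested, except that the filter and the wider table change how many p-values are adjusted and that leaving out arrays leaves fewer samples. The median member difference was -0.07 without the 4 acinar-rich arrays and -0.04 to -0.02 without 1 array; members at an unadjusted p under 0.05 numbered 9 to 16 without 1 array and 10 with the macrophage covariate. Shared replicate numbers are not a pairing in the labels, and same-numbered arrays had correlations of their deviations of -0.477 to 0.131. In the fit with replicate number as a block, 13 members had an unadjusted p under 0.05 and 0 were called. A main difference of at most 0.07 in size changed sign somewhere for 14 members. With the macrophage covariate these were Mlxipl (0.05), Elovl1 (-0.03), Elovl6 (0.12), Hsd17b12 (0.05), Hacd3 (0.0042), Gpam (0.14), Agpat5 (-0.06), Lpin3 (-0.09) and Dgat2 (0.0037). Without the 4 acinar-rich arrays they were Fasn (-0.18), Fads2 (-0.0037), Gpat3 (-0.02), Agpat3 (-0.02) and Lpin3 (-0.05). Mlxipl had 0.003 and Agpat3 -0.0028 with array weights, Elovl2 0.0027 after quantile normalization, Agpat3 -0.0011 with the acinar covariate and Gpat3 -0.05 over both its probe sets. Without 1 array, Mlxipl ranged from -0.04 to 0.04, Fasn from -0.03 to 0.12, Elovl2 from -0.04 to 0.02, Elovl6 from -0.13 to 0.0024, Hsd17b12 from -0.04 to 0.03, Fads2 from -0.0037 to 0.02, Gpam from -0.06 to 0.02, Gpat3 from -0.0034 to 0.05, Agpat3 from -0.0065 to 0.01, Agpat5 from -0.04 to 0.09 and Lpin3 from -0.03 to 0.06.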
